A study of Mus musculus with 30 samples.

Results

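Chromatin accessibility was followed at 139 ATAC-seq peaks of 4 forkhead genes, Foxo1, Foxo3, Foxp1 and Foxp4, in mouse CD4+ T cells. They were all the peaks, of 69316 in the deposited table of 26 libraries, whose nearest protein-coding gene body within 100 kb was one of these genes. Foxp1 held 86 of them, Foxo1 31, Foxp4 12 and Foxo3 10. The table has 13 groups with 2 libraries each, out of 30 samples in 15 groups in the whole series. Cells came from lymph nodes and spleen, freshly sorted in the groups given no retrovirus. Regulatory T cells (Treg) lacking BATF (BATFKO, Foxp3-IRES-hCD2.Batf-/-) were set beside wild-type (WT) Treg, sorted as CD4+hCD2+ from Foxp3-IRES-hCD2 mice, and WT Treg beside WT conventional T cells (Tconv, CD4+hCD2-). From the same WT strain came effector Treg (eTreg, sorted as CCR7lo) and central Treg (cTreg, sorted as CCR7hi CD44lo), and their hCD2- counterparts, effector (Teff) and naive (Tnaive) T cells. Treg of mice carrying Foxp3R397W-IRES-hCD2 over a Foxp3-IRES-GFP allele, sorted as hCD2+GFP-, were set beside Treg of mice with Foxp3WT-IRES-hCD2 over the same GFP allele. Treg lacking both factors (DKO, Foxp3KO-IRES-hCD2.Batf-/-) received retroviruses carrying Foxp3 and BATF together, BATF alone, Foxp3 alone, or a mock vector; all 4 groups, the mock included, carry both deletions. The library names of these 4 groups contain the word vivo, and their handling differed from that of the other groups by the virus step. C57BL6/J is the strain named for the mice other than the DKO, and no age is given.

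Forkhead factors bind DNA through a winged-helix domain and are classed by letter. The FOXO factors FOXO1 and FOXO3 enter the nucleus when PI3K-AKT signalling is low, and in resting T cells FOXO1 drives genes of homing and survival such as Ccr7, Klf2 and Il7r, while FOXO3 is known for control of cell death genes. FOXP1 and FOXP4 belong to the same subfamily as Foxp3, the defining factor of Treg, and pair with each other and with other FOXP proteins through a leucine zipper; FOXP1 is known for keeping naive T cells quiescent. BATF is an AP-1 family factor of effector differentiation.

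Foxp1 lies on the minus strand of chromosome 6 (mm10, chr6:98925342-99522746, 597.4 kb) and is annotated with 3 transcript starts, at bases 99520993, 99266515 and 99028298. The 250 bases before each start are shown because the accessibility of the starts differed, as described below. They are read 5′ to 3′ on the gene's strand from RefSeq (GRCm38.p6), with CG dinucleotides in capitals.
Foxp1 start at 99520993, chr6:99520994-99521243, minus strand: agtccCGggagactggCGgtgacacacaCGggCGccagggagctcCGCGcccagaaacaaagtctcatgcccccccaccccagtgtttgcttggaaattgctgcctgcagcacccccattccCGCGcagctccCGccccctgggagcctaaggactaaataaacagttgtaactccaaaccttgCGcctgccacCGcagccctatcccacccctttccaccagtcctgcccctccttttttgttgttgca
Foxp1 start at 99266515, chr6:99266516-99266765, minus strand: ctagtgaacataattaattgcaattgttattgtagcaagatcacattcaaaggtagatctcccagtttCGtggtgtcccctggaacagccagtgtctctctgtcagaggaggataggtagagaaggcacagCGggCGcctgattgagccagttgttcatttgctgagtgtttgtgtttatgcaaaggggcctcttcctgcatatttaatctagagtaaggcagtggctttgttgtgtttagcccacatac
Foxp1 start at 99028298, chr6:99028299-99028548, minus strand: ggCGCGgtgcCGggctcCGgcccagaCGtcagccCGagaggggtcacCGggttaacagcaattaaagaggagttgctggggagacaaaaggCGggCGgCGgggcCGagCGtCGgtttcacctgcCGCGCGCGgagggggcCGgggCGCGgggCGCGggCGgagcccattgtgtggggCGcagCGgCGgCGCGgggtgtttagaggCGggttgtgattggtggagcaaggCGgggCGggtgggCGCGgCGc
The window before the start at 99028298 is 74.0% G and C with 34 CG dinucleotides, that before 99266515 is 45.2% with 3, and that before 99520993 is 60.8% with 11. The median over the 21263 promoter windows of the same table was 55.6% and 10. Of 6 short motifs sought on both strands of these windows and of those of Foxo1, Foxo3 and Foxp4, the forkhead core TGTTTAC, the AP-1 motif TGANTCA, the RUNX motif TGTGGT and the ETS core CCGGAA had no match in any of the 6 windows, against 2.62%, 6.13%, 12.4% and 15% of all windows. The E-box CANCTG matched once in each Foxp1 window and in that of Foxp4, against 42% of all windows. The TCF/LEF motif CTTTGA, found in 12.7% of all windows, matched once, in the window before 99266515.

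Before any comparison, the names of the libraries need a word. The authors deposited a second table of 22 libraries, and 18 libraries occur in both, matched by their reads at 4478 peaks with identical coordinates, where 98 to 100% of the read numbers were equal against at most 3.35% for the next best library. Only 6 of the 18 carry the same group name in both tables. The libraries called eTreg and cTreg here are named WT Treg and Foxp3R397W Treg there, those called Foxp3R397W and its control are named eTreg and cTreg, and those called Tnaive and Teff are named WT Treg and Foxp3KO. Names below are those of the 26-library table, whose columns Foxp3WTTreg were read as the control of Foxp3R397W. Under these names the 5 peaks nearest Foxp3 summed to 573 and 545 in eTreg and 657 and 630 in cTreg. Teff had 51.4 and 52.8 and Tnaive 98.3 and 118. The libraries named as conventional cells were thus the low ones. Of the 8 peaks nearest Batf, the one most depleted in BATFKO Treg is chr12:85686411-85686811, where the BATFKO libraries had 0 reads each and the 8 DKO libraries 0 to 8, while every other library had 117 to 1490. The Foxp3 peaks summed to 935 to 1500 in the DKO libraries, so they give no check of the Foxp3 deletion. The libraries held 3716499 to 25462278 reads in peaks.

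Scores below are the authors' normalized peak scores. Changes are differences in log2(score + 1) ± SE from limma fitted over all 69316 peaks, and a peak was called at a Benjamini-Hochberg adjusted p under 0.05. Counts at an unadjusted p under 0.05 were made for the peaks of the forkhead genes only, so no share of all peaks stands beside them. Each group has 2 libraries; whether these are separate animals is not stated in the labels, so p-values measure only the spread between libraries. A score is accessibility over the whole sorted sample, so fewer cells with an open site and less opening per cell cannot be told apart. By the titles, the Foxp3R397W pair and the DKO groups were made by omniATAC-seq and the others by ATAC-seq; levels across these protocols cannot be told apart from the protocol. Libraries that the tables name differently fall under the other protocol by their other name.

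Foxp1 had more assigned peaks than any other of the 15722 genes with a peak, where the median was 3. Of its 86 peaks, 85 lie in the gene body. Foxo1 (chr3:52268337-52350109, plus strand, 81.8 kb) has 15 peaks in its body, 8 upstream and 8 downstream. Foxo3 (chr10:42181845-42276695, minus strand, 94.9 kb) has 8 and 2 upstream, and Foxp4 (chr17:47867133-47924632, minus strand, 57.5 kb) has 6, with 3 on either side. Only gene bodies were used, so a peak is not placed in an exon, an intron or a UTR. At the edge of the 100 kb limit, the farthest Foxo1 peak inside lies 97.2 kb away with a mean score of 12 and the nearest outside 108.5 kb away with 523. The farthest Foxp1 peak inside lies 82 kb away (mean score 84.1) and the nearest outside 116.9 kb away (32.1). Of the 139 peaks, 81 had a mean score above the table median of 48.6.

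Foxp1 peaks were called more often than those of its relatives. Over 10 comparisons of 2 groups, 8 of the 86 Foxp1 peaks (9.3%) were called in none and 49 (57%) in 3 or more. The same numbers were 10 and 6 of 31 for Foxo1 (32.3% and 19.4%), 4 and 2 of 10 for Foxo3 (40% and 20%), and 6 and 3 of 12 for Foxp4 (50% and 25%). Over all peaks 37.8% were called in none and 27.4% in 3 or more.

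No comparison called the start peaks of Foxo1 or Foxp4. The peak over the Foxo1 start (chr3:52268129-52268529, mean score 426) changed by -0.29 to 0.25 over the 10 comparisons, and that over the Foxp4 start (chr17:47924504-47924904, mean score 325) by -0.35 to 0.19, with no call at either. Foxo3 has no peak over its start; peaks on both sides lie 874 bp away, with mean scores of 183 and 1439, and neither was called. The 3 starts of Foxp1 differed. The CG-rich start at 99028298 (chr6:99028216-99028616, mean score 135) moved by -0.36 to 0.54 without a call. At the CG-poor start at 99266515 (chr6:99266194-99266594, mean score 139), scores were 45.4 and 65.5 in eTreg against 150.2 and 144 in cTreg. Both eTreg libraries lay well below both cTreg libraries (log2 change -1.42 ± 0.22, adjusted p = 7.38e-06). Teff had 42.7 and 64.6 there and Tnaive 135 and 137 (log2 change -1.36 ± 0.22, adjusted p = 1.11e-05). DKO Treg given both viruses had 105 and 121, against 202 and 311 with mock (log2 change -1.15 ± 0.22, adjusted p = 2.23e-04). Again no library of the first-named group reached those of the second. The peak that begins 17 bp upstream of the start at 99520993 (chr6:99521010-99521410) was called only in the last of these, at 16.5 and 17.3 with both viruses and 30.6 and 35.2 with mock (log2 change -0.92 ± 0.32, adjusted p = 0.034), and in none of the 4 fits that left out a library (highest adjusted p = 0.18).

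The most accessible peak of each gene lay elsewhere. For Foxo3 it was chr10:42277569-42277969, just upstream, with a mean score of 1439 and libraries from 868 to 2745. For Foxo1 it was chr3:52197971-52198371, 70.2 kb upstream of the start (mean 583, from 371 to 778). For Foxp1 it was chr6:99261322-99261722, 259.5 kb past the start at 99520993 and close to that at 99266515 (mean 491, from 227 to 875). For Foxp4 it was chr17:47873483-47873883, 50.9 kb into the gene (mean 490, from 305 to 796). Distances along Foxp1 below are all from the start at 99520993.

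Summed over its 86 peaks, Foxp1 was lowest in the effector cells. The Foxp1 sum was 5857 and 6077 in eTreg and 8897 and 7654 in cTreg; it was 4870 and 4905 in Teff and 8590 and 8202 in Tnaive. Teff was the lowest of the 13 groups and eTreg the next, and neither overlapped its neighbour in the order. BATFKO Treg came next at 6544 and 6549, below WT Treg at 6617 and 6801, and from WT Treg upward every group overlapped the next. Foxp3R397W Treg were highest at 12680 and 10377, with their control at 9839 and 7853. Among the DKO groups, both viruses together gave 6122 and 8180, BATF alone 9023 and 11195, Foxp3 alone 9529 and 11801, and mock 9970 and 12445. In each DKO group library 2 was the higher, as it was in total score over all peaks. The sums were not scaled by that total, which ran from 8280573 in Tconv library 1 to 12790526 in mock library 2.

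Foxo1 sums ranged from 2483 ± 32.2 in Tconv (SD, n = 2) to 4065 ± 444 in mock DKO Treg. Total scores over all peaks also differed between these groups, at 8280573 and 8444429 in Tconv and 10790075 and 12790526 in mock. The Foxo1 sums were 3265 ± 49.6 in eTreg and 3711 ± 53.7 in cTreg, and 2827 ± 10.1 in Teff and 3539 ± 80.6 in Tnaive, without overlap in either pair. BATFKO Treg (2731 ± 163) and WT Treg (2731 ± 38.3) overlapped. Foxo3 sums were 1857 ± 84.9 in eTreg and 2211 ± 51.6 in cTreg, and the groups from the Foxp3R397W control down to Tconv formed an unbroken chain of overlaps. Foxp4 sums differed least, from 1025 ± 37.0 in Teff to 1613 ± 59.2 with both viruses, and eTreg (1173 ± 48.7) overlapped cTreg (1205 ± 7.2).

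**Figure D1:**
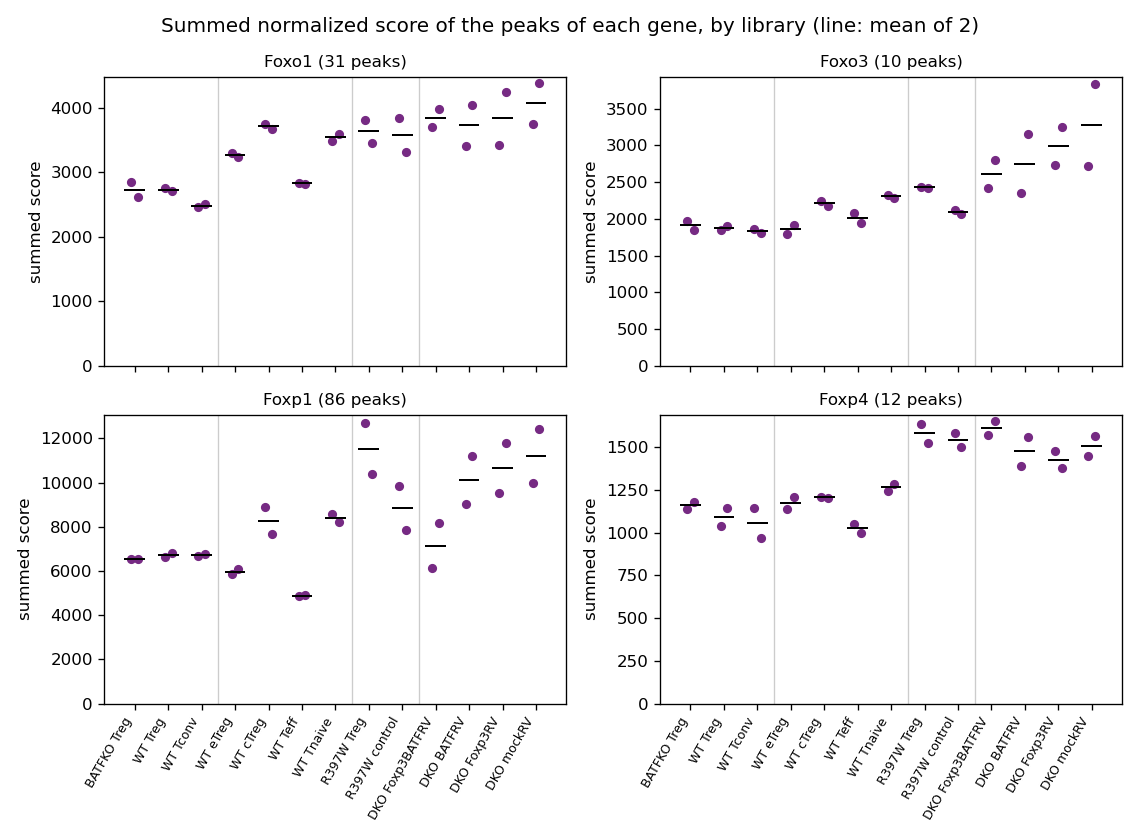
Summed normalized score of the peaks of each gene (y axis, from 0), with a point per library and a line at the mean of 2, by group (x axis). The Foxp1 panel shows Teff at 4870 and 4905 and eTreg at 5857 and 6077 below all other groups.

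In the step from central to effector Treg, most Foxp1 peaks closed. Of the 139 peaks, 15 were called higher in eTreg and 67 lower than in cTreg, where 37.1% of all peaks were called, 19.7% higher and 17.4% lower. Foxp1 had 9 higher and 49 lower of 86, so 57.0% of its peaks were lower, with a median change of -0.93 against 0.03 over all peaks. Foxo1 had 3 higher and 11 lower of 31 (median -0.27), Foxo3 0 higher and 6 lower of 10 (median -1.44), and Foxp4 3 higher and 1 lower of 12 (median -0.18). The conventional effector step gave a like picture: 11 of the 139 peaks were called higher and 69 lower in Teff than in Tnaive, where 40.3% of all peaks were called, 20.7% higher and 19.6% lower. Foxp1 had 7 higher and 51 lower (59.3% lower, median -1.06 against -0.01). Foxo1 had 2 higher and 13 lower, Foxo3 0 and 3, and Foxp4 2 and 2.

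**Figure D2:**
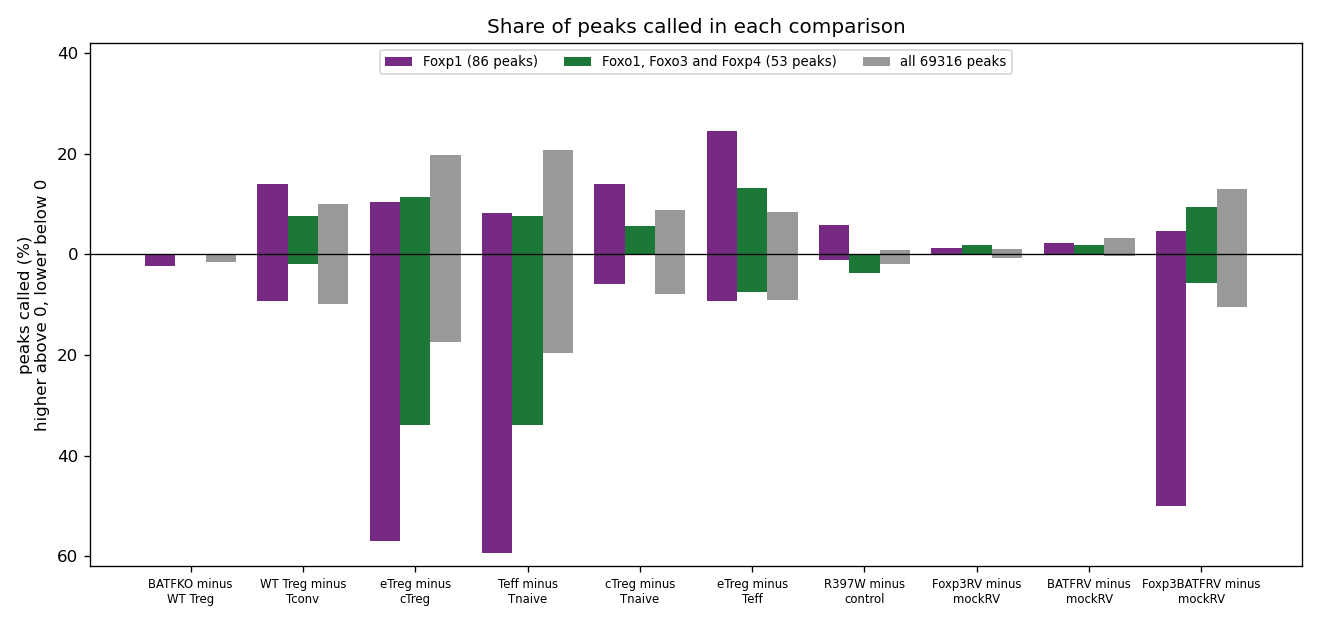
Share of peaks called in each comparison (y axis, percent; higher above 0, lower below) for the 86 Foxp1 peaks, the 53 peaks of the other 3 genes and all 69316 peaks. Foxp1 bars reach 57.0% and 59.3% lower in the effector steps of Treg and conventional cells and 50% lower with both viruses, against 17.4%, 19.6% and 10.5% of all peaks.

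These comparisons share no library, and 44 Foxp1 peaks were lower in both, 89.8% of the 49 lower in eTreg and 86.3% of the 51 lower in Teff. Over all peaks the shared part was 71.4% and 63.3%. The starting shares differed, since 57.0% and 59.3% of Foxp1 peaks were lower, against 17.4% and 19.6% of all peaks. All 7 Foxp1 peaks higher in Teff were among the 9 higher in eTreg, and none was called in opposite directions. Across the 86 Foxp1 peaks the changes of both steps correlated at r = 0.87, against 0.792 over all 69316 peaks; peaks of 1 library are not independent, and this is a description.

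The peaks that closed lay mostly within 300 kb of the first start. In bins drawn after the values were seen, 22 of the 31 peaks up to 150 kb were lower in eTreg, 18 of 28 between 150 and 300 kb, 7 of 12 between 300 and 450 kb, and 2 of 15 beyond 450 kb. The last bin held 4 of the 9 peaks that were higher. Teff minus Tnaive gave 23, 17, 8 and 3 lower peaks in the same bins, and both viruses minus mock 21, 15, 5 and 2.

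**Figure D3:**
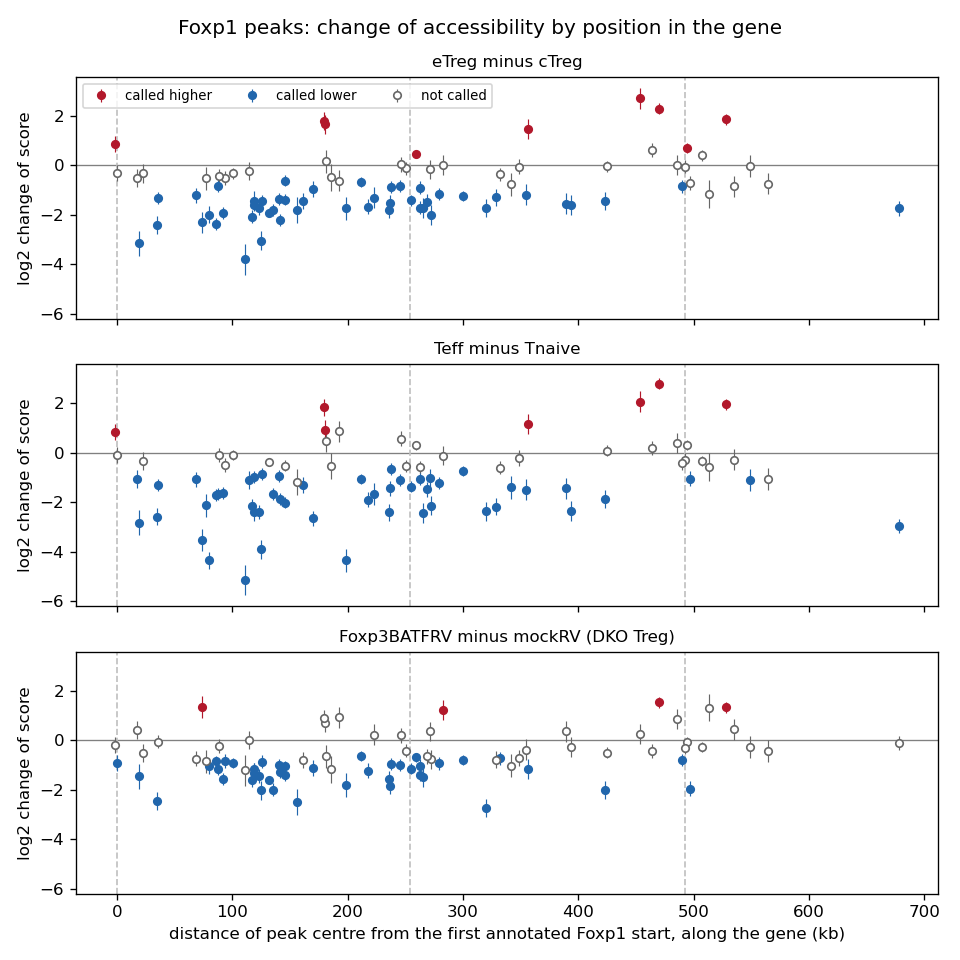
Change of score of each Foxp1 peak (y axis, log2, bar ± SE) against its distance from the start at 99520993 (x axis, kb); dashed lines mark the 3 annotated starts. Up to 450 kb most called peaks lie below 0 in all 3 panels, while 2 peaks at 470.2 and 528.0 kb lie above 0 in each.

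Of the Foxp1 peaks that closed, chr6:99395729-99396129 (125.1 kb) had scores of 4.43 and 11.7 in eTreg against 73.8 and 61.7 in cTreg (log2 change -3.04 ± 0.37, adjusted p = 1.39e-07). In Teff it had 6.97 and 12.7 against 156 and 155 in Tnaive (log2 change -3.91 ± 0.37, adjusted p = 1.09e-09). The effector libraries held a small remnant of the resting score in both lineages, with no overlap. At chr6:99441132-99441532 (79.7 kb), Teff had 3.48 and 3.91 and Tnaive 115 and 77.7 (log2 change -4.35 ± 0.34, adjusted p = 2.26e-11). There eTreg kept more, at 14.4 and 18.7 against 76.4 and 61.7 in cTreg (log2 change -2.00 ± 0.34, adjusted p = 2.27e-05). At chr6:99486233-99486633 (34.6 kb), eTreg had 8.86 and 7.02 and cTreg 64.9 and 33.1 (log2 change -2.41 ± 0.35, adjusted p = 2.59e-06). Here cTreg overlapped Teff, which had 47.9 and 34.2 against 284 and 214 in Tnaive (log2 change -2.57 ± 0.35, adjusted p = 7.57e-07). These calls held in each fit that left out a library.

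Fewer Foxp1 peaks opened, and the 3 with the largest changes in eTreg lie deep in the gene. At chr6:98992764-98993164 (528.0 kb), scores were 501 and 400.3 in eTreg and 152 and 97 in cTreg (log2 change 1.87 ± 0.22, adjusted p = 7.35e-08), while Teff had 192 and 184 and Tnaive 49.8 and 45.3 (log2 change 1.96 ± 0.22, adjusted p = 2.51e-08). The effector libraries were the higher in both lineages, and Treg of either state lay above conventional cells of the same state. At chr6:99050573-99050973 (470.2 kb), scores were 391 and 391 in eTreg and 89.8 and 69.4 in cTreg (log2 change 2.29 ± 0.22, adjusted p = 2.82e-09), and 149.8 and 155 in Teff and 19.2 and 23.3 in Tnaive (log2 change 2.79 ± 0.22, adjusted p = 3.86e-11). The order of the groups was the same as at the first of these peaks, with eTreg apart from the rest. A smaller one, chr6:99067446-99067846 (453.3 kb), had 47.6 and 69.1 in eTreg and 6.22 and 9.92 in cTreg (log2 change 2.72 ± 0.42, adjusted p = 5.16e-06).

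**Figure D4:**
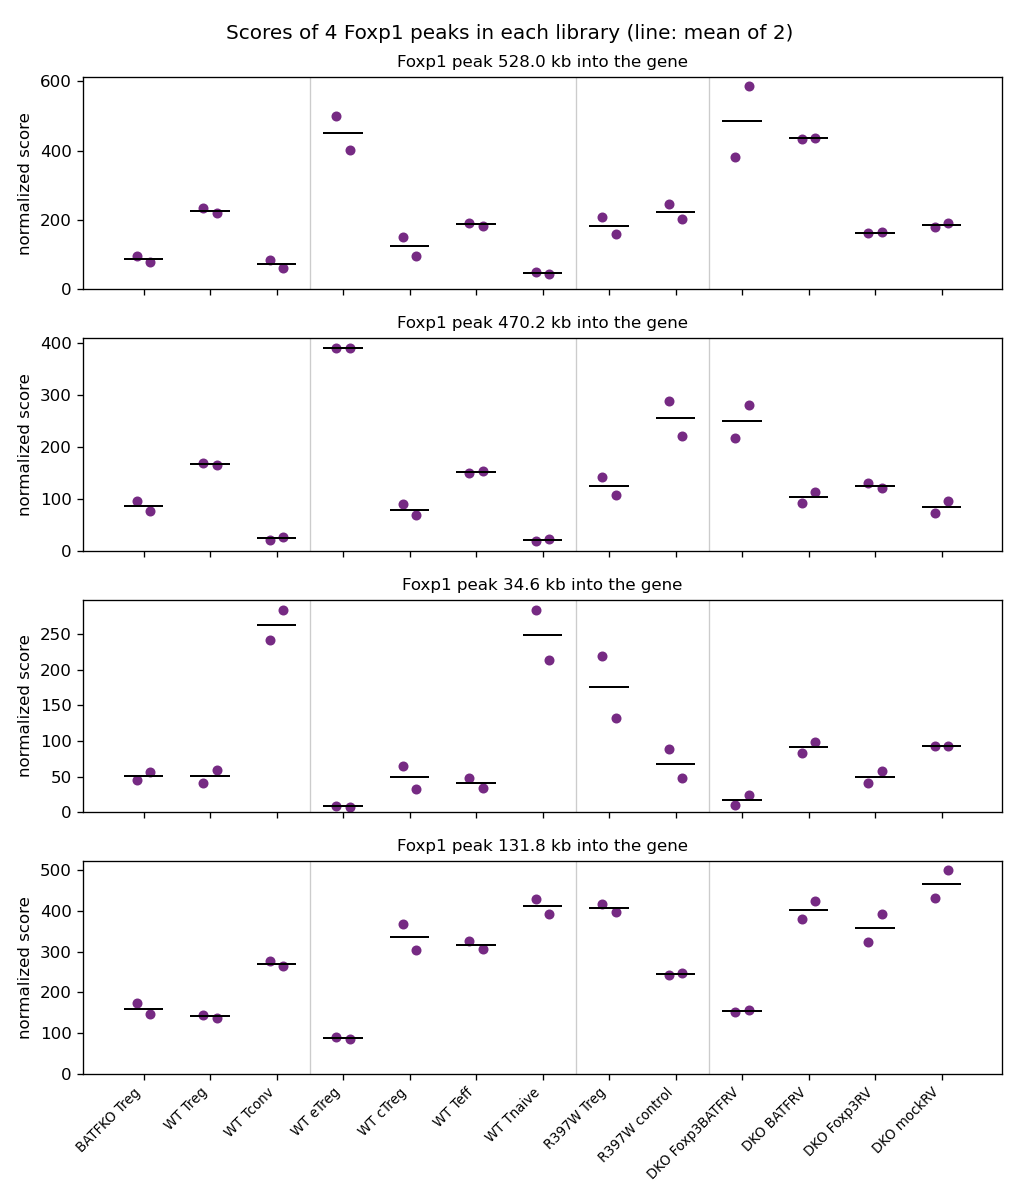
Normalized scores of 4 Foxp1 peaks (y axis, from 0) in each library, with a line at the mean of 2, by group (x axis). The peaks at 528.0 and 470.2 kb are highest in eTreg among its groups and low in Tconv and Tnaive. Among the DKO groups the peak at 470.2 kb is highest with both viruses, while at 528.0 kb both viruses overlap BATF alone. The peaks at 34.6 and 131.8 kb are lowest in eTreg and with both viruses.

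In Foxo1, the peak chr3:52398036-52398436, 129.9 kb past the start and downstream of the gene, had 80.9 and 73.7 in eTreg and 180.4 and 191 in cTreg (log2 change -1.25 ± 0.21, adjusted p = 2.17e-05), and 64.4 and 71.4 in Teff and 155 and 197 in Tnaive (log2 change -1.35 ± 0.21, adjusted p = 6.35e-06). Effector libraries were low in both lineages. The peak chr3:52257740-52258140, 10.4 kb upstream of the start, had 17.7 and 33.9 in eTreg and 55.1 and 62.8 in cTreg (log2 change -1.23 ± 0.30, adjusted p = 0.0017), a call lost without eTreg library 1 (change -0.78). In Teff it had 13.1 and 16.6 and in Tnaive 49.8 and 70 (log2 change -1.93 ± 0.30, adjusted p = 6.28e-06). Foxo1 also has peaks that opened: chr3:52302776-52303176, 34.6 kb into the gene, had 107 and 114 in eTreg and 11.6 and 7.71 in cTreg (log2 change 3.41 ± 0.62, adjusted p = 7.46e-05), and 33.1 and 24.5 in Teff and 12.8 and 6.48 in Tnaive (log2 change 1.54 ± 0.62, adjusted p = 0.049). The eTreg libraries stood far above all 3 other states, while the call in Teff was lost without Teff library 1, Teff library 2 or Tnaive library 2 (changes 1.10 to 1.98 over the 4 fits). The most accessible Foxo1 peak, chr3:52197971-52198371, rose little, at 644 and 664 in eTreg and 482 and 536 in cTreg (log2 change 0.36 ± 0.15, adjusted p = 0.05), and was not called by edgeR or in any fit that left out a library of either group (0.29 to 0.44).

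In Foxo3 every peak called in either effector step was lower. At chr10:42226157-42226557, 50.3 kb into the gene, eTreg had 26.6 and 23.4 and cTreg 100.4 and 108 (log2 change -2.02 ± 0.29, adjusted p = 1.95e-06), and Teff had 39.2 and 46 and Tnaive 86.8 and 75.1 (log2 change -0.91 ± 0.29, adjusted p = 0.012). The second call was lost without Teff library 1 or Tnaive library 1 (-1.03 to -0.80). At chr10:42270667-42271067, 5.8 kb into the gene, eTreg had 59.8 and 46.8 and cTreg 118 and 115 (log2 change -1.12 ± 0.25, adjusted p = 5.94e-04), and Teff had 74 and 82.2 and Tnaive 144 and 214 (log2 change -1.16 ± 0.25, adjusted p = 3.67e-04). Neither pair of groups overlapped.

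Foxp4 had the fewest closing peaks and 1 that opened strongly. That peak, chr17:47943097-47943497, lies 18.7 kb upstream of the start and had 95.3 and 71.4 in eTreg and 13.3 and 13.2 in cTreg (log2 change 2.55 ± 0.38, adjusted p = 3.44e-06). In Teff it had 57.5 and 70.4 and in Tnaive 3.83 and 14.3 (log2 change 2.91 ± 0.38, adjusted p = 3.32e-07). Effector libraries of both lineages were the high ones. Inside the gene, chr17:47883176-47883576 (41.3 kb) had 28.8 and 41 in eTreg and 64 and 77.1 in cTreg (log2 change -1.01 ± 0.34, adjusted p = 0.019), which was lost without eTreg library 1 or cTreg library 2 (-1.26 to -0.76). The most accessible Foxp4 peak, chr17:47873483-47873883, was lower in Teff at 330 and 305 than in Tnaive at 483 and 464 (log2 change -0.57 ± 0.17, adjusted p = 0.0063; lost without Teff library 2, change -0.52).

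Markers of the states followed the names. The summed score of Ccr7, Lef1 and Tcf7 was 6778 to 7255 in eTreg and 10312 to 11415 in cTreg, and that of Il10, Klrg1, Icos and Prdm1 was 8768 to 8998 in eTreg and 6141 to 6580 in cTreg. CCR7 was also a sort marker. The T cell genes Cd3e, Cd3g and Cd4 summed to 1030 to 1043 in eTreg and 1210 to 1307 in cTreg. In Teff these T cell genes came to 1178 to 1345 and in Tnaive to 1547 to 1571. Of markers of other cells, the B cell genes Ms4a1 and Cd79a had no peak, while Pax5 summed to 317 to 322 in eTreg and 58.7 to 93.7 in cTreg. The CD8 and NK cell genes (4 of 4 with a peak) summed to 1517 to 1613 in eTreg and 1884 to 2090 in cTreg, and the myeloid genes (3 of 4, with none at Csf1r) to 437 to 490 in eTreg and 464 to 476 in cTreg. Of the erythroid genes, Gata1 and Hbb-bt had peaks, with 83.1 to 112 in eTreg and 276 to 291 in cTreg. In the conventional cells, Ccr7, Lef1 and Tcf7 summed to 8350 to 9138 in Teff and 12683 to 13774 in Tnaive, and the 4 effector genes to 8482 to 8606 in Teff and 6581 to 6749 in Tnaive. Pax5 came to 249.5 to 263.9 in Teff and 25.5 to 44.1 in Tnaive, and the CD8 and NK cell genes to 1487 to 1615 in Teff and 2336 to 2761 in Tnaive. The myeloid genes came to 569 to 575 in Teff and 671 to 753 in Tnaive, and the erythroid genes to 52.8 to 71.4 in Teff and 72.6 to 83 in Tnaive. Their part in the results was not tested.

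Treg differed from conventional cells at fewer of these peaks than the states differed from each other, and the same held over all peaks. Of the 139 peaks 18.0% were called in WT Treg against Tconv and 14.4% in cTreg against Tnaive. Both lie slightly below the shares of all peaks. In eTreg against Teff 28.8% were called, above the share of all peaks. WT Treg against WT Tconv, both unsorted for state, gave 16 of the 139 peaks higher and 9 lower, where 20% of all peaks were called, 10.1% higher and 9.92% lower. Foxp1 had 12 higher and 8 lower, Foxo1 3 and 1, Foxp4 1 and 0, and Foxo3 no call. The resting cells, cTreg against Tnaive, gave 15 higher and 5 lower of 139, where 16.6% of all peaks were called, 8.8% higher and 7.82% lower. Foxp1 had 12 and 5 of these, Foxo1 2 and 0, and Foxp4 1 and 0. The effector cells, eTreg against Teff, gave 28 higher and 12 lower, where 17.5% of all peaks were called, 8.4% higher and 9.07% lower. Foxp1 had 21 higher and 8 lower there, with a median of 0.30 against 0.04 over all peaks, while Foxo1 had 4 and 2, Foxp4 3 and 0, and Foxo3 0 and 2. The comparison of unsorted cells shares no library with the other pair of comparisons. Of its 12 higher Foxp1 peaks, 10 were higher in cTreg, 83.3% of the 12 there, and 10 in eTreg, 47.6% of the 21 there. Of all peaks higher in WT Treg, 54.4% were higher in cTreg (62.6% of those there) and 46.7% in eTreg (56.3% of those there). Among Foxp1 peaks 13.95% were higher in WT Treg and in cTreg and 24.4% in eTreg. Among all peaks 10.1%, 8.8% and 8.4% were. Single libraries moved these counts: the 25 calls of the unsorted cells came to 15 without Treg library 1 and 16 without Tconv library 1, the 20 of the resting cells to 12 without cTreg library 1, and the 40 of the effector cells to between 20 and 26 without any 1 of the 4 libraries.

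The Foxp1 peak with the largest change between WT Treg and Tconv was chr6:99340949-99341349 (179.8 kb). It had 97.8 and 76.6 in WT Treg and 6.53 and 4.54 in Tconv (log2 change 3.76 ± 0.35, adjusted p = 5.74e-09), 57.8 and 26.5 in cTreg and 6.39 and 9.07 in Tnaive (log2 change 2.22 ± 0.35, adjusted p = 2.39e-05), and 151 and 128 in eTreg and 31.4 and 28.4 in Teff (log2 change 2.18 ± 0.35, adjusted p = 3.99e-05). Every Treg library of a state lay above every conventional library of that state. The peak chr6:99050573-99050973 (470.2 kb) was also higher in WT Treg than in Tconv, with means of 168 and 24.2 (log2 change 2.75 ± 0.22, adjusted p = 4.52e-10). At chr6:99406101-99406501 (114.7 kb), eTreg had 34.3 and 58.5 and Teff 4.35 and 4.89 (log2 change 3.03 ± 0.36, adjusted p = 4.70e-07), and cTreg 54.2 and 50.7 and Tnaive 11.5 and 10.4 (log2 change 2.16 ± 0.36, adjusted p = 4.56e-05). Treg libraries were again the high ones. In the other direction, chr6:99486233-99486633 (34.6 kb), described above, had 41.5 and 59.2 in WT Treg and 242 and 284 in Tconv (log2 change -2.38 ± 0.35, adjusted p = 9.90e-06). It was lower in cTreg than in Tnaive (log2 change -2.38 ± 0.35, adjusted p = 8.76e-06) and lower in eTreg than in Teff (log2 change -2.22 ± 0.35, adjusted p = 3.15e-05). At chr6:99395729-99396129 (125.1 kb), WT Treg had 20.8 and 23.5 and Tconv 136 and 63.6 (log2 change -2.02 ± 0.37, adjusted p = 1.65e-04). Its call in cTreg against Tnaive (log2 change -1.19 ± 0.37, adjusted p = 0.023) was lost without any 1 of the 4 libraries (-1.32 to -1.07).

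In Foxo1, the intragenic peak chr3:52298664-52299064 (30.5 kb) was higher in Treg throughout. It had 270.3 and 226 in eTreg and 100.1 and 105 in Teff (log2 change 1.26 ± 0.25, adjusted p = 5.43e-04), 200 and 169 in cTreg and 95.8 and 81.6 in Tnaive (log2 change 1.05 ± 0.25, adjusted p = 0.0034), and 175 and 146 in WT Treg and 89.8 and 90.9 in Tconv (log2 change 0.82 ± 0.25, adjusted p = 0.021). No Treg library overlapped its conventional counterparts. The call in unsorted cells was lost without Tconv library 1, Tconv library 2 or Treg library 1 (0.69 to 0.94), and that in resting cells without Tnaive library 2 or cTreg library 1 (0.92 to 1.17). Foxp4's upstream peak chr17:47943097-47943497 had 40.3 and 42.9 in WT Treg and 6.53 and 4.54 in Tconv (log2 change 2.72 ± 0.38, adjusted p = 4.03e-06), held in each fit that left out a library.

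Whether the effector step differed between the lineages was tested as an interaction, the change in Treg minus that in conventional cells. It was called at 5 of the 139 peaks (3.6%), 3 higher and 2 lower, where 3.91% of all peaks were called, 1.18% higher and 2.72% lower. The 5 of 139 are thus near the share of all peaks. The strongest was chr6:99388952-99389352 in Foxp1 (131.8 kb), with 90.9 and 85.4 in eTreg and 367 and 304 in cTreg, but 326 and 307 in Teff and 430.4 and 393 in Tnaive. Closing in Treg was large (log2 change -1.91 ± 0.16, adjusted p = 1.97e-10) and in conventional cells small and not called (log2 change -0.38 ± 0.16, adjusted p = 0.062), and the difference of the changes was -1.53 ± 0.23 with adjusted p = 8.41e-05. The peak chr6:99441132-99441532 (79.7 kb) closed further in conventional cells, as given above, with a difference of 2.35 ± 0.48 and adjusted p = 0.0033. Both held in each of 8 fits that left out a library, while the count of 5 came to 3 without Teff library 1, Tnaive library 1 or eTreg library 1 and to 2 without Teff library 2, cTreg library 2 or eTreg library 2. By edgeR it was 3, with 1 higher and 2 lower.

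Loss of BATF touched 2 of the 139 peaks. Both were Foxp1 peaks and both were lower in BATFKO Treg than in WT Treg, where 1.49% of all peaks were called, 0.062% higher and 1.43% lower. At an unadjusted p under 0.05, limma gave 11 of the 139, a count not taken over all peaks. Quantile scaling gave 2 higher and 4 lower. The 2 of 139 are thus near the share of all peaks. They are the peaks at 528.0 and 470.2 kb that opened in the effector steps; of all peaks lower in BATFKO Treg, 93.5% were higher in eTreg than in cTreg. At chr6:98992764-98993164, BATFKO Treg had 96.3 and 79.6, WT Treg 235 and 219 and Tconv 84.9 and 61.3. BATFKO Treg were thus near Tconv and far below WT Treg (log2 change -1.36 ± 0.22, adjusted p = 2.48e-04). At chr6:99050573-99050973, BATFKO Treg had 95.2 and 77, WT Treg 169.9 and 166 and Tconv 21.2 and 27.3. Here BATFKO Treg lay between the others (log2 change -0.96 ± 0.22, adjusted p = 0.016). The call at the first peak held without any 1 library (-1.50 to -1.23), while that at the second was lost without BATFKO library 2, WT Treg library 1 or WT Treg library 2 (-1.12 to -0.81), and the count of 2 came to 1 without BATFKO library 2 or WT Treg library 1. Without WT Treg library 2 it came to 2 higher and 1 lower.

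Other peaks that opened in effector cells were not called in BATFKO Treg. At Foxp4's upstream peak chr17:47943097-47943497, BATFKO Treg had 21 and 21.5 and WT Treg 40.3 and 42.9 (log2 change -0.94 ± 0.38, adjusted p = 0.39), without overlap. At the closing Foxp1 peak chr6:99486233-99486633, BATFKO Treg had 44.8 and 56.8 and WT Treg 41.5 and 59.2 (log2 change 0.02 ± 0.35, adjusted p = 1), overlapping. The median change over Foxp1 was 0.05 against 0.03 over all peaks.

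Foxp3R397W Treg, which carry a missense form of Foxp3, differed from their control at 8 of the 139 peaks (5.8%) by limma. Of the 139 peaks 5 were called higher (3.6%) and 3 lower (2.2%), where 2.63% of all peaks were called, 0.776% higher and 1.85% lower. All 5 higher were in Foxp1, whose median change was 0.42 against 0.03 over all peaks. Of its 86 peaks, 30 had an unadjusted p under 0.05 by limma, a count not taken over all peaks. Most of the 8 calls were lost when a library was left out. By edgeR on the recovered reads 18 were higher and 3 lower, and by limma fitted to these groups alone 21 and 3. Over all peaks those settings called 6396 and 6571, against 1821 in the main fit, so the count over all peaks rose too.

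At chr6:99388952-99389352 (131.8 kb), Foxp3R397W Treg had 416 and 396 and control Treg 242 and 248 (log2 change 0.73 ± 0.16, adjusted p = 0.01). At chr6:99395729-99396129 (125.1 kb), Foxp3R397W Treg had 127 and 138 and control Treg 49.6 and 48.8 (log2 change 1.41 ± 0.37, adjusted p = 0.033), and at chr6:99486233-99486633 (34.6 kb) Foxp3R397W Treg had 218 and 132 and control Treg 88.4 and 47.5 (log2 change 1.37 ± 0.35, adjusted p = 0.028). In each case the mutant libraries were the high ones and did not overlap the controls. The other pair of higher peaks lies between 135 and 142 kb. At chr6:99379310-99379710, Foxp3R397W Treg had 159 and 118 and control Treg 80.4 and 66.2 (log2 change 0.90 ± 0.24, adjusted p = 0.037). At chr6:99385050-99385450, Foxp3R397W Treg had 165 and 142 and control Treg 74.2 and 69.5 (log2 change 1.08 ± 0.25, adjusted p = 0.013). All 5 had closed in eTreg relative to cTreg and with both viruses relative to mock, comparisons that share no library with this one. Of all peaks higher in Foxp3R397W Treg, 79% were lower in eTreg and 87% lower with both viruses. Across the 86 Foxp1 peaks, the changes in Foxp3R397W correlated with those in eTreg at r = -0.707 and with those of both viruses at -0.694, against -0.653 and -0.588 over all peaks.

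The 3 lower peaks were among those that opened in eTreg, as were 90.4% of all peaks lower in Foxp3R397W Treg. At chr6:99050573-99050973 in Foxp1 (470.2 kb), Foxp3R397W Treg had 142 and 108 and control Treg 289.7 and 221 (log2 change -1.02 ± 0.22, adjusted p = 0.0093). At chr17:47943097-47943497, upstream of Foxp4, Foxp3R397W Treg had 11.8 and 15.2 and control Treg 43.8 and 48.8 (log2 change -1.71 ± 0.38, adjusted p = 0.01), and at chr3:52248756-52249156, 19.4 kb upstream of Foxo1, Foxp3R397W Treg had 5.06 and 4.59 and control Treg 21.7 and 26.1 (log2 change -2.09 ± 0.54, adjusted p = 0.03). Mutant libraries were below controls at all 3. The peak at 528.0 kb, which fell in BATFKO Treg, had 208 and 159 in Foxp3R397W Treg and 246 and 202 in control Treg, overlapping (log2 change -0.29 ± 0.22, adjusted p = 0.70). Leaving out Foxp3R397W library 2 or control library 1 ended the call at 470.2 kb, leaving out Foxp3R397W library 1 or control library 2 that at 34.6 kb (-1.22 to -0.83 and 0.93 to 1.82), and leaving out any 1 of the 4 ended the other 6.

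Marker sums also differed in this pair. The T cell genes Cd3e, Cd3g and Cd4 summed to 2294 to 2423 in Foxp3R397W Treg and 1881 to 2082 in control Treg. Ccr7, Lef1 and Tcf7 summed to 15552 to 17456 in Foxp3R397W Treg and 12048 to 14587 in control Treg, and the Treg genes Foxp3, Ikzf2, Il2ra, Ctla4 and Lrrc32 to 10097 to 10767 in Foxp3R397W Treg and 11108 to 12768 in control Treg. The effector genes came to 5132 to 5506 in Foxp3R397W Treg and 5510 to 6041 in control Treg, and Pax5 to 114 to 141 in Foxp3R397W Treg and 181 to 203 in control Treg, without overlap in any of these. The CD8 and NK cell, myeloid and erythroid genes overlapped, at 2641 to 2895, 600.5 to 782 and 106 to 145 in Foxp3R397W Treg and 2290 to 2724, 699.7 to 766 and 131 to 177 in control Treg. Their part in the results was not tested.

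Given together, the Foxp3 and BATF viruses left 43 of the 86 Foxp1 peaks lower in DKO Treg than mock did. With both viruses 9 of the 139 peaks were called higher and 46 lower than with mock, where 23.3% of all peaks were called, 12.9% higher and 10.5% lower; quantile scaling gave 3 higher and 46 lower. Foxp1 had 4 higher and 43 lower (50%), with a median change of -0.79 against -0.04 over all peaks. Foxo1 had 3 higher and 2 lower, Foxo3 0 and 1, and Foxp4 2 and 0. BATF alone gave 3 higher and 0 lower of 139 by limma (edgeR 3 and 1), where 3.49% of all peaks were called, 3.2% higher and 0.291% lower. Foxp3 alone gave 2 higher and 0 lower (edgeR 1 and 1), where 1.82% were called, 1.01% higher and 0.814% lower. Their Foxp1 medians were -0.24 and -0.01. All 3 comparisons share the mock libraries. Leaving out mock library 2 lowered the count with both viruses to 30 and leaving out library 1 of both viruses lowered it to 32, with 23 and 25 lower Foxp1 peaks. The 3 calls with BATF came to 5 without mock library 1, and the 2 with Foxp3 to 1 without Foxp3 library 2 or either mock library.

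**Figure D5:**
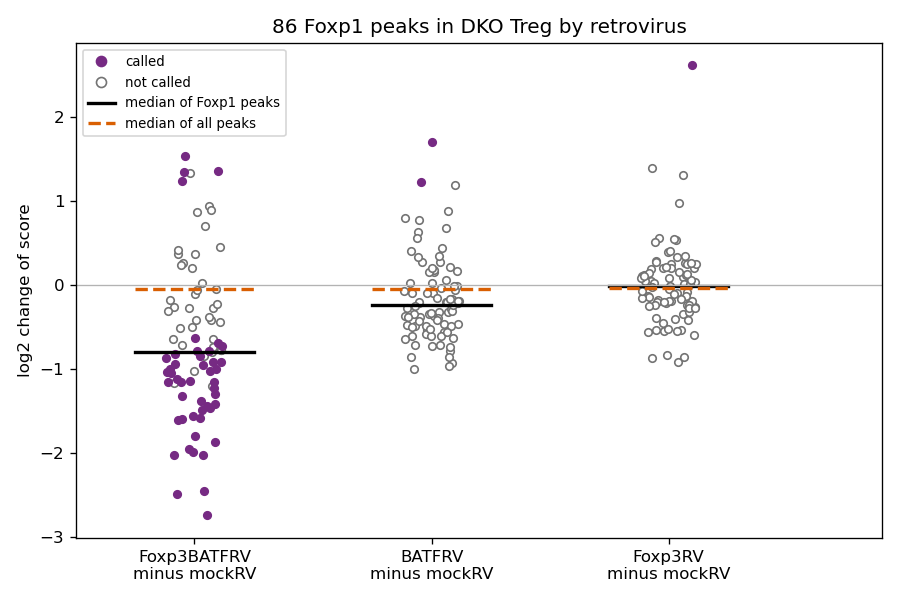
Change of score (y axis, log2) of the 86 Foxp1 peaks in DKO Treg given both viruses, BATF or Foxp3, each minus mock, with filled points for called peaks. Solid lines mark the Foxp1 medians of -0.79, -0.24 and -0.01, dashed lines those of all peaks.

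The effector step of WT Treg shares no library with these. Of the 43 Foxp1 peaks lower with both viruses, 36 (83.7%) were lower in eTreg, 73.5% of the 49 lower there. Over all peaks the shared part was 56.1% and 33.7%. The starting shares differed, with 57.0% of Foxp1 peaks and 17.4% of all peaks lower in eTreg. With both viruses they were 50% and 10.5%, so the shared parts are not set on equal ground. The changes in these comparisons correlated at r = 0.568 across the 86 peaks, against 0.559 over all peaks.

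At chr6:99388952-99389352 (131.8 kb), scores were 150.5 and 157 with both viruses, 381 and 423 with BATF, 323 and 393 with Foxp3 and 432 and 501 with mock. Only the libraries given both stood apart from mock by the test (log2 change -1.59 ± 0.16, adjusted p = 1.25e-08; BATF adjusted p = 0.68, Foxp3 adjusted p = 0.26). At chr6:99486233-99486633 (34.6 kb), they were 10.7 and 24.2 with both, 82.9 and 98.9 with BATF, 40.9 and 58.3 with Foxp3 and 92.8 and 92.9 with mock (log2 change -2.45 ± 0.35, adjusted p = 4.19e-06 for both). Foxp3 alone lay below mock without passing the test (log2 change -0.91 ± 0.35, adjusted p = 0.21). Farther into the gene, chr6:99097148-99097548 (423.6 kb) had 26.2 and 13.8 with both viruses and 70.6 and 91.9 with mock (log2 change -2.02 ± 0.37, adjusted p = 1.08e-04).

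Some Foxp1 peaks opened with the viruses, and they were called with different ones. At chr6:98992764-98993164 (528.0 kb), scores were 383 and 585 with both, 434 and 437 with BATF, 163 and 164 with Foxp3 and 179 and 193 with mock. BATF alone was called (log2 change 1.22 ± 0.22, adjusted p = 5.15e-04), as were both together (log2 change 1.34 ± 0.22, adjusted p = 2.66e-05), while Foxp3 alone was not (log2 change -0.18 ± 0.22, adjusted p = 0.81). At chr6:99050573-99050973 (470.2 kb), scores were 218 and 281 with both, 91.5 and 114 with BATF, 130.2 and 121 with Foxp3 and 73.8 and 96.8 with mock. Here both together were called (log2 change 1.54 ± 0.22, adjusted p = 4.86e-06), and BATF (adjusted p = 0.72) and Foxp3 (adjusted p = 0.22) were not. Another peak, chr6:99249627-99250027 (271.2 kb), rose with BATF, at 52 and 76.8 against 21.1 and 16.6 with mock (log2 change 1.70 ± 0.39, adjusted p = 0.007; called in 2 of 4 fits that left out a library, 1.42 to 1.98). The differences between viruses at these peaks were not tested apart from the interaction below.

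The calls with Foxp3 alone were at a pair of weak peaks. The Foxp1 peak chr6:99447201-99447601 (73.6 kb) had 12.9 and 15.3 with Foxp3 and 1.05 and 1.96 with mock (log2 change 2.61 ± 0.43, adjusted p = 0.0014). The Foxo3 peak chr10:42219096-42219496, 57.4 kb into the gene, had 17.2 and 24.6 with Foxp3 and 6.33 and 5.87 with mock (log2 change 1.61 ± 0.39, adjusted p = 0.027; called in 1 of 4 fits that left out a library, 1.36 to 1.85). Foxp3 libraries were the higher at both, and both peaks lay lower in eTreg than in cTreg (log2 change -2.30 ± 0.43, adjusted p = 9.02e-05 and log2 change -1.97 ± 0.39, adjusted p = 1.53e-04).

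Of the other genes, Foxp4's upstream peak chr17:47943097-47943497 had 174 and 191 with both viruses, 71.7 and 84.5 with BATF, 26.9 and 41.4 with Foxp3 and 22.1 and 18.6 with mock. It rose with both (log2 change 3.11 ± 0.38, adjusted p = 3.28e-07) and with BATF (log2 change 1.89 ± 0.38, adjusted p = 0.0019) but was not called with Foxp3 (log2 change 0.69 ± 0.38, adjusted p = 0.45). The Foxo3 peak chr10:42270667-42271067 was lower with both viruses, at 66 and 38 against 122 and 136 with mock (log2 change -1.35 ± 0.25, adjusted p = 1.34e-04), as it was in effector cells. At the Foxo1 peak chr3:52257740-52258140, 10.4 kb upstream, both viruses gave 73.8 and 71.4 and mock 31.6 and 41.1 (log2 change 0.99 ± 0.30, adjusted p = 0.016), opposite in sign to the effector steps. That call was lost without mock library 1 or either library of both viruses (0.81 to 1.17).

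The departure of both viruses from the sum of each alone was tested as an interaction. It was called at 2 of the 139 peaks (1.4%), both in Foxp1 and both lower, where 1.09% of all peaks were called, 0.586% higher and 0.506% lower. The 2 of 139 are near the share of all peaks. The median departure over the 86 Foxp1 peaks was -0.58 against 0.03 over all peaks. Of these 86, 28 had an unadjusted p under 0.05 by limma, a count not taken over all peaks. At chr6:99388952-99389352 (131.8 kb) the departure was -1.0 ± 0.23 with adjusted p = 0.03. That count of 2 came to between 0 and 3 when a library was left out and to 0 when only the DKO groups were fitted by limma (23 of the 139 at an unadjusted p under 0.05). It was 1 without BATFRV library 1, Foxp3 library 2 or mock library 2, and 0 without BATFRV library 2, library 1 of both viruses or mock library 1, where 15 to 18 peaks had an unadjusted p under 0.05; edgeR called 2. With the replicate number as a block, it was 1 with the block shared by all groups and 6, all lower, with a block within the DKO groups; whether the numbers pair libraries is not stated in the labels.

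Marker lists in DKO Treg were summed in the same way. The T cell genes Cd3e, Cd3g and Cd4 summed to 1830 to 2069 with both viruses and 2295 to 2754 with mock, without overlap. Ccr7, Lef1 and Tcf7 summed to 10827 to 13572 with both viruses and 18343 to 25285 with mock, Il10, Klrg1, Icos and Prdm1 to 11207 to 13120 with both and 8298 to 8747 with mock, and the Treg genes Foxp3, Ikzf2, Il2ra, Ctla4 and Lrrc32 to 15024 to 18371 with both and 11866 to 14611 with mock. Of other cells, Pax5 summed to 393 to 442 with both viruses and 182 to 191 with mock, with no peak at Ms4a1 or Cd79a, and the 3 myeloid genes with a peak to 1414 to 1703 with both and 798 to 1005 with mock. The CD8 and NK cell genes came to 2232 to 2259 with both and 2426 to 2709 with mock, and the erythroid genes to 93.2 to 117 with both and 226 to 299 with mock. Their part in the results was not tested.

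Genes that act downstream and upstream of the FOXO factors were counted as lists. For 19 genes known as FOXO1 targets in T cells, with 316 peaks, 32 peaks were higher and 159 lower in eTreg than in cTreg (60.4% called, median -0.67 against 0.03 over all peaks). In Teff against Tnaive 39 were higher and 164 lower, and with both viruses against mock 39 and 101 (median -0.43). The lower ones were 50.3%, 51.9% and 32% of the list, against 17.4%, 19.6% and 10.5% of all peaks, and the higher ones 10.1%, 12.3% and 12.3%, against 19.7%, 20.7% and 12.9%. Among those that fell in eTreg, a peak of Bcl2l11, which encodes the death factor BIM, averaged 8.62 ± 4.4 in eTreg and 152 ± 45.1 in cTreg (SD, n = 2 each; log2 change -4.04), and a peak of the homing receptor gene Ccr7 24.9 ± 7.1 in eTreg and 138 ± 4.8 in cTreg (-2.45). A peak of Tcf7, a factor of naive and stem-like T cells, fell with both viruses to 44.5 ± 13.6, against 229.9 ± 15 with mock (-2.37). Among those that rose in eTreg were peaks of the inhibitory receptor gene Ctla4, at 197 ± 22.9 in eTreg and 18.9 ± 3.4 in cTreg (3.32), and of Prdm1, which encodes the effector factor Blimp-1, at 72.7 ± 8.4 in eTreg and 2.10 ± 1.7 in cTreg (4.69). Bach2, a repressor of effector genes, held peaks of both kinds, with changes of 3.52 and -3.29. Foxp3, Ctla4 and Prdm1 are also on the marker lists, and Ccr7 and Tcf7 as well.

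For 18 genes of PI3K-AKT signalling and FOXO control, with 150 peaks, 31 were higher and 17 lower in eTreg than in cTreg (median 0.06), 28 and 24 in Teff against Tnaive (median -0.03), and 27 and 15 with both viruses against mock. In all 32%, 34.7% and 28% of the list were called, against the 37.1%, 40.3% and 23.3% of all peaks. Peaks of Pik3ca, the catalytic subunit p110α of PI3K, averaged 151 ± 5.0 in eTreg and 5.87 ± 0.50 in cTreg (4.47), and of Phlpp1, a phosphatase that removes phosphate from AKT, 107 ± 11.1 in eTreg and 6.19 ± 3.7 in cTreg (4.01). Sgk1, a kinase that phosphorylates FOXO factors, had a peak that rose in eTreg (2.21) and another that fell (-1.41). A peak of Usp7, a deubiquitinase that acts on FOXO proteins, averaged 9.64 ± 2.0 in eTreg and 81.2 ± 0.49 in cTreg (-2.96). Of 40 other forkhead genes, 34 had a peak, 149 in all, of which more were called higher than lower. In eTreg against cTreg 45 were higher and 17 lower, in Teff against Tnaive 48 and 18, and with both viruses against mock 19 and 8. The higher ones were 30.2%, 32.2% and 12.8% of the list, against 19.7%, 20.7% and 12.9% of all peaks. Those with the smallest p in eTreg against cTreg were peaks assigned to Foxl1, at 109 ± 1.8 in eTreg and 3.77 ± 2.2 in cTreg (4.61), and to Foxq1, at 254 ± 34.8 in eTreg and 18.2 ± 7.0 in cTreg (3.78). Assignment by the nearest gene body does not say that a gene is expressed.

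The genes whose summed scores followed each of the 4 most closely, by Pearson r of the log2 sums over the 13 group means among 4448 genes with at least 5 peaks, were Zfp281 (r = 0.982), Acoxl (0.953) and Actn1 (0.935) for Foxp1. They were Cflar (0.951), Btn1a1 (0.936) and Spred2 (0.935) for Foxo1, Ppp6r1 (0.973), Tcp11l2 (0.973) and Kmt2e (0.971) for Foxo3, and Ranbp6 (0.973), Trim7 (0.967) and Kansl1 (0.967) for Foxp4. Among the 4 themselves r lay between 0.726 (Foxo1 and Foxp1) and 0.841 (Foxo1 and Foxp4), and with Foxp3 between 0.548 (Foxo3) and 0.693 (Foxp4). The groups share 2 protocols and their library depth, so these are descriptions.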

How the data were processed

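Per the labels, mouse T cells were profiled by ATAC-seq, some by its omniATAC variant, which measure chromatin accessibility. The signal used is the normalized peak score that the authors deposited in a table of 69316 peaks and 26 libraries. Per the submitters' processing notes, mm10 was the build, and DiffBind (3.0.15, 3.4.11), edgeR (3.36.0, 3.38.4), Bowtie2 (2.4.1) and MACS2 (2.2.7.1) were used; no step is described further. Within a library, 100% of scores were whole reads times a constant factor, to within 0.02 reads, and the libraries held 3716499 to 25462278 such reads. Replicate numbers were taken from the titles, and for the Foxp3R397W control from the column names.

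From there, peaks were given to the nearest RefSeq protein-coding gene body within 100 kb (GRCm38.p6; bedtools 2.31.1). Scores were tested as log2(score + 1) with limma 3.58.1 (trend and robust options; R 4.3.3), all 13 groups in one fit with 13 residual degrees of freedom, with no filter on low scores, and p-values were Benjamini-Hochberg adjusted over all peaks. This scale understates changes of low scores. Alternatives were edgeR 4.0.16 (quasi-likelihood, TMM) on the recovered reads, pseudocount 5, a mean score of at least 20, quantile scaling, a fit of the compared groups only, a replicate block, a limit of 10 kb, the other deposited table, and leaving out each library. Over all peaks edgeR called 593 (departure from additive) to 28889 (Teff minus Tnaive), against 757 and 27947 by limma; its counts differed by over 1.5 times for BATFKO (1914 against 1032) and Foxp3R397W (6396 against 1821). The test was checked on simulated data.

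The 4 genes, the gene lists and the comparisons were chosen with earlier results of these data known. Peaks described in full were the start peak and the most accessible peak of each gene and, per comparison and direction, the 2 called peaks that changed most, taken from those whose groups did not overlap and whose mean score exceeded the median of the table. The peaks at chr17:47943097-47943497, chr3:52302776-52303176 and chr3:52248756-52249156, the Foxp1 peak at 453.3 kb, and those behind counts of 5 or fewer were also named, after values were seen. List genes named are up to 3 per direction by smallest p. Items of the gene lists that are not reported here were left out of the lists' sums and counts.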

Additional observations from a re-analysis of the deposited data

Results flagged for a closer look

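By the test of the difference itself, 5 of the 139 peaks (3.6%) changed unequally in the effector steps of the lineages. That is near the 3.91% called over all peaks. Values are given as the log2 change from cTreg to eTreg minus that from Tnaive to Teff, with limma adjusted p. At chr6:99388952-99389352 in Foxp1 it was -1.53 ± 0.23 (adjusted p = 8.41e-05) and at chr6:99441132-99441532 in Foxp1 2.35 ± 0.48 (0.0033); both also passed by edgeR and with each library left out. At chr6:99322535-99322935 in Foxp1 it was 2.61 ± 0.67 (0.023), where eTreg had 17.7 and 18.7 and cTreg 88 and 45.2, and Teff 8.71 and 0.978 and Tnaive 111 and 70. At chr6:99350537-99350937 in Foxp1 it was 1.69 ± 0.45 (0.026), and at chr3:52443941-52444341, downstream of Foxo1, -2.2 ± 0.63 (0.043). These last 3 did not pass by edgeR and were called in 3, 2 and 1 of 8 fits that left out a library.

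The effect of both viruses departed from the sum of each alone at 2 of the 139 peaks (1.4%), both in Foxp1. That is near the 1.09% called over all peaks. At chr6:99388952-99389352 the departure was -1.0 ± 0.23 (adjusted p = 0.03), which passed by edgeR and in 4 of 8 fits that left out a library. At chr6:99447201-99447601 it was -2.46 ± 0.61 (0.045), called in 1 of 8 such fits and not by edgeR, on scores of 4.85 and 5.76 with both viruses, 3.71 and 5.76 with BATF, 12.9 and 15.3 with Foxp3 and 1.05 and 1.96 with mock.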

How the results depend on the processing

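Counts are of the 139 peaks called by limma (of 146 in the other table). The other deposited table, which differs in its peaks and libraries as well as in names, gave the widest changes: WT Treg minus Tconv had 42 calls (25 here), eTreg minus cTreg 12 (82), Teff minus Tnaive 9 (80), cTreg minus Tnaive and eTreg minus Teff 0 (20 and 40), the effector step difference 0 (5) and Foxp3R397W minus control 90 (8). At an unadjusted p under 0.05, those with 0 calls had 1, 0 and 0. Matched by reads, the Foxp3R397W and control libraries there are the cTreg and eTreg libraries here. Its eTreg and cTreg libraries are the Foxp3R397W and control libraries here, and its Teff and Tnaive libraries are not among those used here. Except for WT Treg minus Tconv, the counts given for that table thus come from different libraries under the same names. With quantile scaling BATFKO minus WT Treg had 6 (2), WT Treg minus Tconv 39, and Foxp3 alone and the departure from additive 1 each (2 and 2). Foxp3R397W had 21 by edgeR and 24 with only its groups fitted, where all peaks had 6396 and 6571 (1821 in the main fit). With only its groups fitted, Foxp3 alone and the departure had 0 each (12 and 23 at an unadjusted p under 0.05, and 2 each by edgeR). Over all peaks that fit called 334 for Foxp3 alone and 0 for the departure. With a mean score of at least 20, Foxp3 alone and the departure had 1 each. By edgeR the effector step difference had 3. Apart from the libraries that differ under the same names, the causes were not tested.

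Leaving out each library gave 1 to 3 calls for BATFKO, 15 to 22 for WT Treg minus Tconv, 12 to 19 for cTreg minus Tnaive, 20 to 26 for eTreg minus Teff, 64 to 69 for eTreg minus cTreg, 62 to 68 for Teff minus Tnaive, 1 each time for Foxp3R397W, 1 to 2 for Foxp3 alone, 2 to 5 for BATF alone, 30 to 48 for both viruses, 2 to 5 for the effector step difference and 0 to 3 for the departure. The lone library left is assumed to vary like the other groups. Of 923 recomputed values of 89 peak results, 772 kept direction and call, 151 kept direction only and none changed sign. The 89 were picked because the main fit called them, and the other deposited table was left out of these values.

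The labels do not say that a replicate number pairs libraries, and there are only 2 numbers. Differences between library 1 and 2 correlated between groups at 0.0435 to 0.0779 in the sorted states and at 0.147 to 0.215 in the DKO groups. Between BATFKO and WT Treg they correlated at 0.162, within the range of the DKO groups, and between WT Treg and Tconv at 0.0639. In each DKO group library 2 had the higher Foxp1 sum and the higher total score. With the replicate number as a block the departure had 1 call, eTreg minus cTreg 83, Teff minus Tnaive 78, both viruses 53 and BATFKO 2. With a block within the DKO groups, chosen after seeing the data, the departure had 6, both viruses 60, BATF alone 4 and Foxp3 alone 3. For Foxp3R397W no block was fitted. Its columns and those of its control are both numbered 1 and 2, while the titles number the control otherwise. In both groups of that pair library 1 had the higher Foxp1 sum.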
